A study of Mus musculus with 8 samples.

Results

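The insulin-like growth factor (IGF) genes described here are the ligands Igf1 and Igf2, the receptors Igf1r and Igf2r, and the binding proteins Igfbp2, Igfbp3, Igfbp4, Igfbp5, Igfbp6 and Igfbp7. They were taken as every array probe that the scanner files name for 1 of these 10 genes, whatever its signal. This gave 17 of 41174 probes, and 10 of the 28781 gene names on the array. Of the 17 probes, 11 exceeded background clearly on 4 or more of the 8 arrays, and each of the 10 genes had at least 1 such probe.

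Gene expression was measured on 8 arrays of primary vascular smooth muscle cells grown from the aortas of C57BL/6 mice in medium with fetal bovine serum. The AngII group held 4 cultures given 1 µM angiotensin II, the peptide hormone that constricts arteries. The AngII+CsA group held 4 cultures given 1 µM angiotensin II and 200 ng/ml cyclosporin A (CsA), a drug that blocks the phosphatase calcineurin and with it the NFAT transcription factors. Both groups therefore received angiotensin II, cells without it were not analysed here, and the comparison reads the effect of adding the drug. The labels call the cultures of a condition independent and number them 1 to 4 in each group, but the length of treatment, the age and sex of the mice and whether aortas were pooled are not given in the sources used here.

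IGF-I and IGF-II are secreted peptides that act through the type 1 IGF receptor, a tyrosine kinase that signals through PI3 kinase, Akt and MAP kinases to growth and survival. The type 2 receptor carries IGF-II to lysosomes and does not signal in that way. The binding proteins hold the ligands in the extracellular space, lengthen their life or keep them from the receptor, and are themselves cut by proteases such as PAPP-A. Arterial smooth muscle makes IGF-I and several binding proteins and responds to IGF-I with growth and migration.

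The results turn on 6 of the probes, which are given here because pairs of them read the same gene in different ways. The Igf1 probes lie 17038 bases apart on chromosome 10 and followed each other, whereas the 2 probes of Igfbp3 and the 2 of Igfbp5 did not. Each is read 5′ to 3′ along the transcript, as the scanner files give it. Igf1 probe 2 and Igfbp3 probe 1 are printed whole (60 bases), since their letters read as coding sequence, and of the others the first 30 bases are shown. The capitals in Igfbp3 probe 1 mark the Cys-Trp-Cys codons and the first base of the Val codon of a motif. Several IGF-binding proteins, but not all, share this motif near their carboxyl end.
Igf1 probe 1: cgcaggatcctttgctgcttgagcaacctg
Igf1 probe 2: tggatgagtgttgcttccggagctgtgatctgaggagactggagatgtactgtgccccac
Igfbp3 probe 1: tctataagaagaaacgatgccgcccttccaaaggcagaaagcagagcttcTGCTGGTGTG
Igfbp3 probe 2: gcagttttccaaaaacacagatttcttttc
Igfbp5 probe 1: aatagaattttccttggtgtctcccatcta
Igfbp5 probe 2: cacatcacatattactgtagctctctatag

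The files place the probes in mouse build mm7, and exon and UTR positions are not stated, since an mm7 annotation was not used here. Igf1 probe 1 lies at chr10:87488982-87489041 and Igf1 probe 2 at chr10:87471884-87471943, both on the plus strand. Igfbp3 probe 1 spans chr11:7160474-7161483 on the minus strand, a stretch of 1010 bases for a 60-base probe, and Igfbp3 probe 2 lies 1815 bases downstream of it at chr11:7158599-7158658. Igfbp5 probe 1 lies at chr1:73102653-73102712 on the minus strand and Igfbp5 probe 2 lies 2477 bases downstream at chr1:73100116-73100175. None of these 6 probes shared a stretch of 15 bases or more with a probe of another gene.

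A level below is the log2 of a probe's processed signal minus the 75th percentile of its array, so 0 is that percentile and a step of 1 is a doubling. Levels of different probes are not compared as amounts of RNA. Between 42.8% and 51.7% of spots were above background on an array, and no spot was saturated. Of 11 smooth muscle markers, 8 were above background on all 8 arrays, with Acta2 (smooth muscle actin) at 5.51 to 8.79 and Tagln at 7.22 to 9.57, while Myocd, the smooth muscle coactivator, was above it on 1 array. The fibroblast gene Dcn was at 8.02 to 10.05. Of 9 endothelial markers, Pecam1, Cdh5 and Tie1 were above background on 0 arrays, and 5 (Tek, Cldn5, Vwf, Esam and Emcn) on at least 6. The 2 arrays of each replicate number lay on 1 slide and deviated from their group means together (r = 0.70 to 0.86), so culture number and slide cannot be told apart. In bulk RNA, fewer cells of a type and less RNA per cell cannot be told apart either.

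None of the 10 IGF axis genes passed the test for cyclosporin A, and their mean differences lay between -0.36 and 0.07 log2. Igf1, the main growth-promoting ligand of the axis, was at 1.04, 3.53, 4.58 and 3.74 in AngII cultures 1 to 4. With cyclosporin it was at 1.35, 3.59, 4.57 and 3.68 in the cultures of the same numbers. The cultures of number 1 were the lowest in both groups, and the groups overlapped almost completely. Igf1 thus averaged 3.22 ± 1.52 (SD, n = 4) in the AngII group and, over the cyclosporin cultures, 3.30 ± 1.37 (SD, n = 4). The difference, AngII+CsA minus AngII, was 0.07 log2 (limma, Benjamini-Hochberg adjusted p = 1.00). With the replicate number entered as a block, its 95% interval ran from -0.19 to 0.34, or from 0.876-fold to 1.27-fold.

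Igf2, the ligand of fetal growth that is expressed from the paternal allele, was dim. It was at -1.71, -1.18, -3.35 and -3.55 in AngII cultures 1 to 4, and at -2.36, -1.84, -3.35 and -3.67 with cyclosporin. Only the cultures of numbers 1 and 2 were above background, in both groups. Within those pairs the cyclosporin culture was lower by a difference of -0.65 and -0.66, while the pairs of numbers 3 and 4, at background, gave 0.00 and -0.12. Over all pairs the difference was -0.36, with a block interval of -0.73 to 0.01. Igf2 had the smallest p of the members with the block, 0.0542 before adjustment and 0.894 after it (limma, Benjamini-Hochberg).

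The receptors showed no difference that passed the test. Igf1r, the signalling receptor, was at 2.58, 2.76, 3.12 and 2.82 with AngII and at 3.06, 2.47, 2.88 and 2.64 with AngII+CsA. Only the number 1 pair was higher with cyclosporin (0.48), the other 3 being lower. Igf2r, the mannose 6-phosphate receptor that clears IGF-II, was at 6.35, 6.12, 5.82 and 5.75 with AngII and at 6.19, 5.90, 6.23 and 5.66 with AngII+CsA. Here too 1 pair was higher, that of number 3 (0.41). The mean differences were -0.06 for Igf1r (block interval -0.43 to 0.32) and -0.01 for Igf2r (-0.34 to 0.32), and the Igf1r difference turned to 0.05 and the Igf2r difference to 0.13 under another background correction.

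Among the binding proteins the drug differences lay between -0.21 and -0.01. Igfbp5, a matrix-bound protein that smooth muscle cells secrete, was at -2.46, -1.90, -2.94 and -3.23 with AngII and at -2.90, -2.35, -2.97 and -3.16 with AngII+CsA. The pairs of numbers 1 and 2 were lower with cyclosporin by a difference of -0.44 and -0.45, and the pairs of numbers 3 and 4, close to background, differed by -0.03 and 0.07. The mean difference of -0.21 had a block interval of -0.53 to 0.11. Igf2 and Igfbp5 were thus alike in which pairs were lower, and both lay at or near background in numbers 3 and 4.

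Igfbp4, which inhibits IGF action until PAPP-A cuts it, differed between pairs in sign. The number 1 pair was higher by 0.42 with cyclosporin and the number 3 pair lower by a difference of -0.63, around a mean of -0.12 (block interval -0.54 to 0.30). Igfbp2, which carries an integrin-binding motif, also averaged -0.12 (-0.40 to 0.16), and Igfbp6, which prefers IGF-II, averaged -0.10 (-0.39 to 0.20). Igfbp3, the main carrier of IGFs in blood, averaged -0.05 (-0.33 to 0.23). Igfbp7, which binds IGFs only weakly, averaged -0.01 (-0.26 to 0.23) and so had the narrowest interval of the 10.

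**Figure D1:**
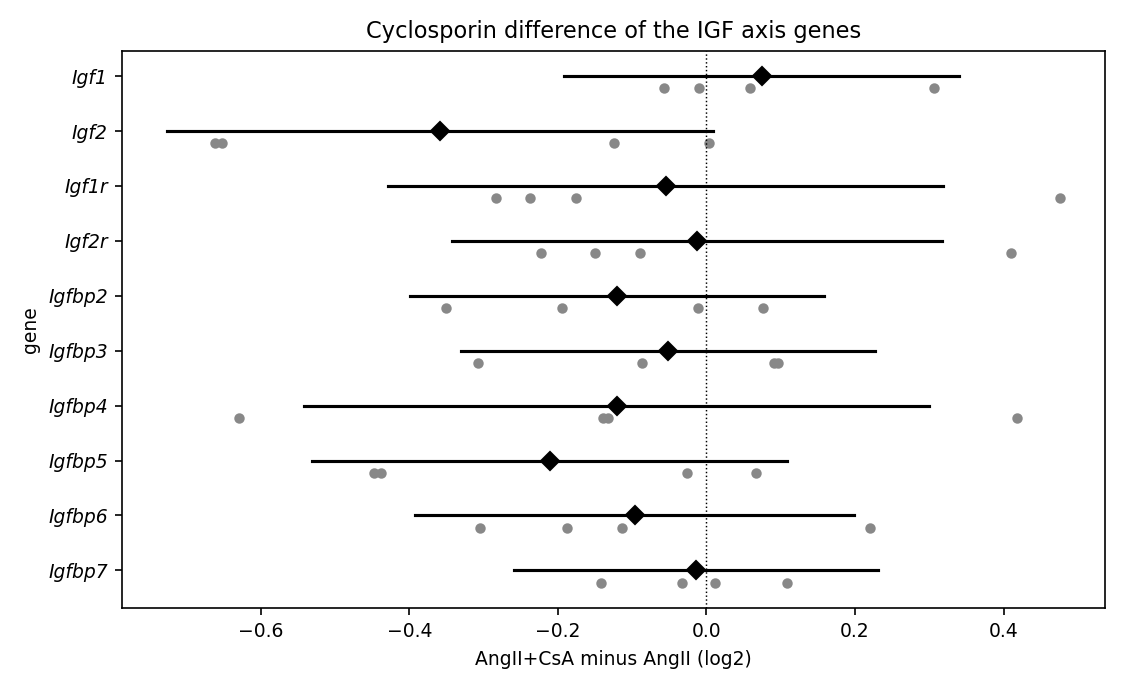
AngII+CsA minus AngII in log2 for the 10 genes (1 row each): grey points are the 4 pairs of the same replicate number, diamonds their mean, and lines the 95% interval of the limma fit blocked by replicate number. All 10 lines cross 0, and the widest pair-to-pair scatter is that of Igfbp4.

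Counted together, 9 of the 10 differences were below 0, with a median of -0.08, beside 55.9% of all 14879 genes tested and a median of -0.02. With arrays scaled to their median 4 of the 10 were below 0, and with the offset correction 6 were. On the groups alone 0 of the 10 members and 0% of all genes passed an adjusted p of 0.05, with 43 genes below an unadjusted 0.05. With the replicate block 0 of the 10 members passed, beside 0.0269% of all genes called lower and 0% called higher, with 783 genes below an unadjusted 0.05. Block intervals reached 0.245 to 0.421 log2 to either side of the members' means, so smaller differences were not detectable with 4 pairs. These intervals are not adjusted for the number of genes, and larger differences could fail the test too. Stc1, described below, differed by -1.30 and did not pass with the block (adjusted p = 0.610, limma). When single arrays were left out without the block, each of the 10 differences turned sign in at least 1 case. Leaving out 1 array also unbalances the culture numbers between the groups. With the block and a pair left out, Igf2, Igfbp2, Igfbp5 and Igfbp6 stayed below 0 in all 4 cases.

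Between replicate numbers the IGF genes differed by 0.39 to 3.38 log2, against drug differences of at most 0.36 in size. With the group as a covariate, a moderated F test called 8 of the 10 members, beside 68.5% of the 14855 genes in that test, so the count itself is not particular to the members. Igf2, among those called, entered that test only through numbers 1 and 2, where it was high. The sizes were larger: the range of the 4 number means had a median of 1.73 log2 over the members and of 0.90 over all genes. This too was not particular to the members, since smooth muscle and fibroblast markers also ranged widely. The tested smooth muscle markers had a median of 1.93, fibroblast 1.67, macrophage 0.90, endothelial 0.67 and adipocyte (1 gene) 0.64. The lists of genes around the axis, described below, had smaller medians. These were 1.00 for insulin, its receptors and other IGF-binding proteins, 0.73 for the proteases, 0.96 for the imprinting list and 0.86 for receptor signalling. With the offset correction each member's range was smaller, from 0.17 for Igf1r to 2.93 for Igf1. Igf1r and Igf2r were the members that did not pass, which does not show that they were equal between cultures.

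**Figure D2:**
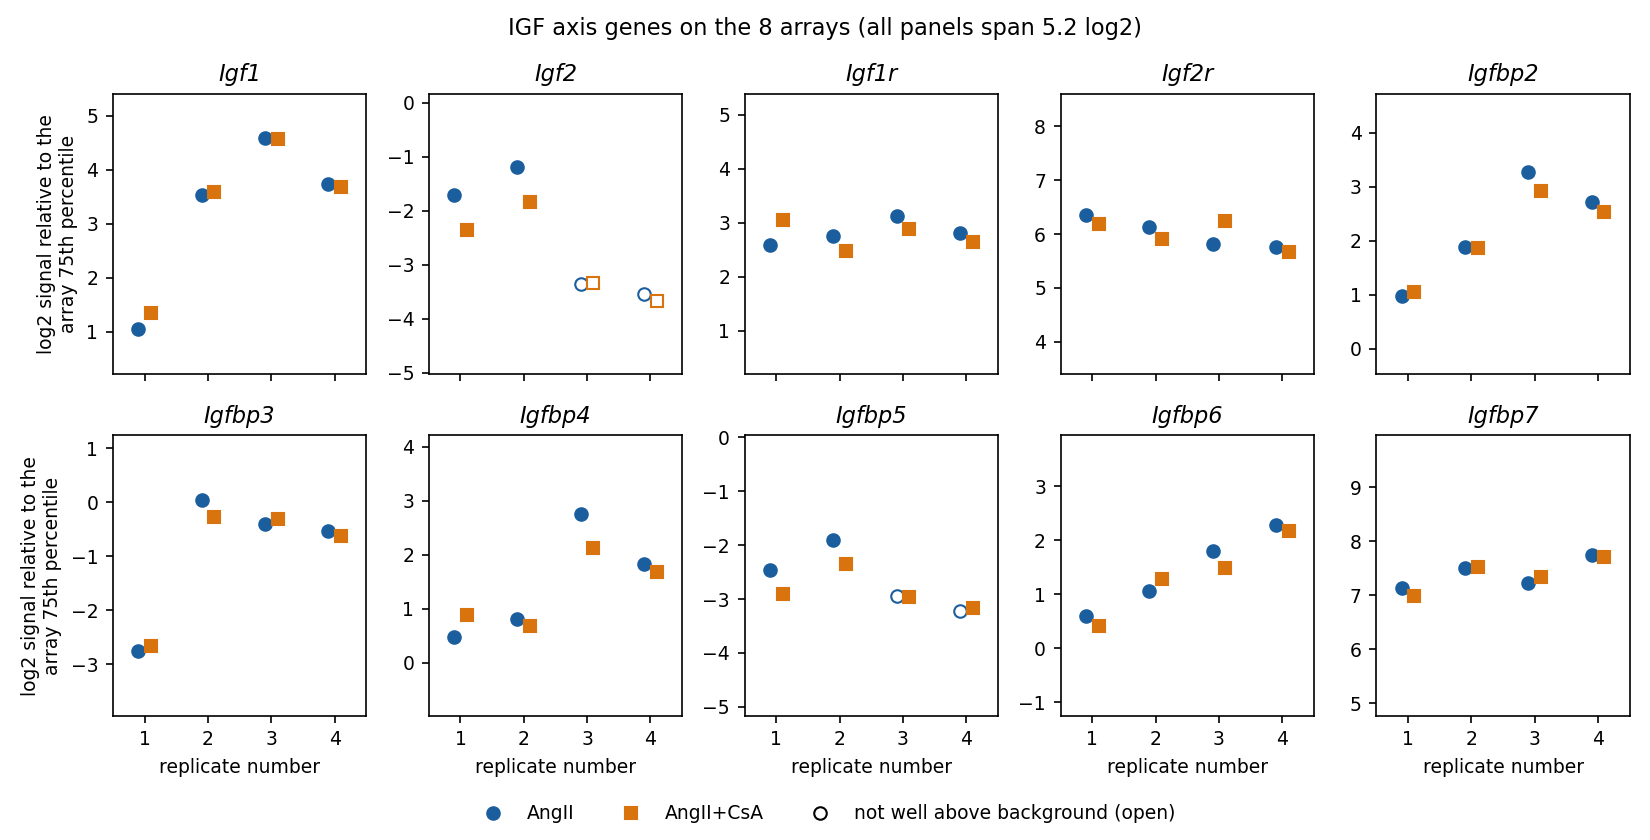
Level of each gene (log2, 0 being the 75th percentile of the array) by replicate number, with circles for AngII and squares for AngII+CsA; open symbols were not well above background. Circle and square of a number lie close together in most panels, while Igf1 spans 1.04 to 4.58 over the 8 arrays and Igf1r 2.47 to 3.12.

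Igf1 ranged most among the members. Its number means were 1.20, 3.56, 4.58 and 3.71, so that number 3 was 10.4-fold above number 1 (range 3.38 log2, limma F test, adjusted p = 0.000769). By this range it ranked 107 among the 14855 genes. The arrays of number 1 stood apart from the 6 others, and without them the Igf1 range was 1.02 log2 and still passed (adjusted p = 0.0133, limma). The order, from number 1 through 2 and 4 to 3, was the same in both groups, and no array of a number overlapped with those of the next.

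The second Igf1 probe gave the same picture from its own place in the transcript. It read 0.77, 3.17, 4.24 and 3.43 with AngII and 1.05, 3.22, 4.25 and 3.45 with AngII+CsA, a range of 3.33 log2. Igf1 probe 1 was printed 10 times per array, and its spots had an SD of 0.058 to 0.123 within an array, small beside the range between cultures. One more Igf1 probe, placed 68074 bases upstream of probe 1 on another transcript record, was above background on 0 arrays.

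Igf2 was highest in number 2 and lowest in number 4. Its number means were -2.04 and -1.51 for numbers 1 and 2 and -3.35 and -3.61 for numbers 3 and 4. The arrays of numbers 1 and 2 overlapped, and those of 3 and 4 were not above background. By the bound defined with the processing, which holds for the processed signal only, number 2 was at least 3.94-fold above number 4. The measured range was 2.10 log2 (adjusted p = 0.00235, limma F test), and 0.47 under the correction that adds an offset of 50, which compresses low signals. Igf2 met the filter only through numbers 1 and 2, where it was high, so this p is not independent of the filter. With no filter on dim probes its adjusted p was 0.0164 (limma F test). The 10 spots of this probe had an SD of 0.079 to 0.418 within an array. A second Igf2 probe, 354 bases upstream, was above background on 0 arrays, so the Igf2 signal rests on 1 probe, which shares 17 bases with a probe of Tcof1.

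Igf1r and Igf2r had the narrowest ranges of the members here, an order that other settings changed. With arrays scaled to their median, for example, Igf1r (0.82 log2) and Igf2r (0.68) ranged wider than Igfbp7 (0.55). Igf1r ranged over 0.39 log2 between number means, the 5.88th percentile of all genes, and its arrays overlapped between most numbers (adjusted p = 0.431, limma F test). Over the other settings its range lay between 0.075 and 0.82, and it passed in none of them. Igf2r ranged over 0.56 log2, with number 1 highest and number 4 lowest (adjusted p = 0.145, limma F test). Igf2r passed when arrays were scaled to their median (adjusted p = 0.0314) or without number 3 (adjusted p = 0.0486), both by the same limma test. Its range was 0.32 without number 1 and 0.26 without number 4. A second Igf1r probe, 38981 bases upstream on another record, was above background on 0 arrays.

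**Figure D3:**
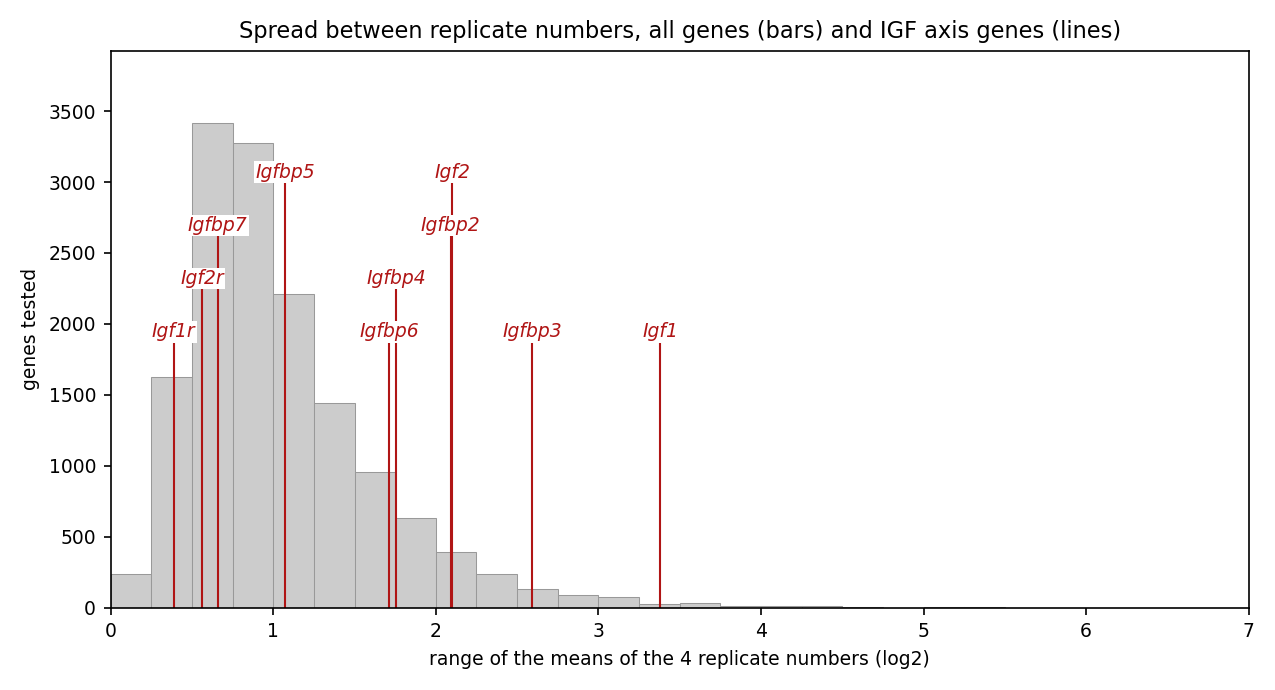
Range of the 4 number means (log2) for all 14855 genes (grey bars, counts per 0.25 log2) and for the 10 IGF axis genes (red lines, whose heights only separate the names). Igf1r, Igf2r and Igfbp7 lie below the median gene at 0.90, and Igf1 lies far in the tail at 3.38.

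Of the binding proteins, Igfbp2 followed the order of Igf1. It was at 0.98, 1.88, 3.28 and 2.73 with AngII and at 1.05, 1.87, 2.93 and 2.53 with AngII+CsA. Number 1 was lowest and number 3 highest, with no overlap between any of the numbers. The range was 2.09 log2, or 4.26-fold (adjusted p = 0.00174, limma F test), and 1.23 without number 1.

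Igfbp4 and Igfbp6 were also lowest in number 1. Igfbp4 was at 0.48, 0.81, 2.76 and 1.82 with AngII and at 0.89, 0.68, 2.13 and 1.68 with AngII+CsA, so numbers 1 and 2 overlapped and number 3 was highest. Its range was 1.76 log2 (3.38-fold, adjusted p = 0.00495, limma F test), and 1.07 without number 3. A second Igfbp4 probe, 3683 bases downstream, was above background on 0 arrays.

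Igfbp6 was at 0.60, 1.07, 1.80 and 2.28 with AngII and at 0.42, 1.29, 1.49 and 2.17 with AngII+CsA. The numbers did not overlap, and number 4, not number 3, was highest. The range was 1.71 log2 (3.28-fold, adjusted p = 0.00306, limma F test), 1.04 without number 1 and 1.13 without number 4. Igfbp7 was steadier, at 7.13, 7.51, 7.23 and 7.74 with AngII and at 6.99, 7.52, 7.34 and 7.70 with AngII+CsA. Its range of 0.66 log2 passed (adjusted p = 0.0268, limma F test), but not without number 1 (0.0520) or number 4 (0.178).

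Igfbp3 gave opposite readings from its 2 probes. Probe 1, the spliced coding probe printed above, was at -2.76, 0.04, -0.41 and -0.54 with AngII and at -2.66, -0.27, -0.32 and -0.62 with AngII+CsA. By this probe number 1 was lowest and number 2 highest, a range of 2.59 log2 or 6.03-fold (adjusted p = 0.00100, limma F test), and 1.03 with the offset of 50. Without number 1 the range was 0.46 log2 and did not pass (adjusted p = 0.0810, limma). Probe 2 was at -0.61, -5.90, -5.18 and -5.62 with AngII and at -0.59, -6.07, -5.37 and -5.71 with AngII+CsA. By that probe number 1 was the highest, and the only one above background, by the same bound at least 10.2-fold above number 2. A direction for Igfbp3 between cultures therefore depends on which probe is read, and the cause was not tested.

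Igfbp5 differed between its probes in the same cultures. Probe 1 was highest in number 2, with number means of -2.68, -2.12, -2.95 and -3.20 and a range of 1.07 log2 (adjusted p = 0.0131, limma F test). The call was lost without number 2 (adjusted p = 0.140) and with the offset of 50 (range 0.23, adjusted p = 0.179), both by limma. Probe 2 was at -0.77, -4.75, -5.10 and -4.21 with AngII and at -0.59, -5.26, -5.24 and -4.70 with AngII+CsA. It was above background only on the 2 arrays of number 1, by the same bound at least 5.37-fold above number 3. Over the whole array 414 of 41174 probes (1.01%) were above background on both arrays of number 1 and on no other, against 391 for number 2, 6 for number 3 and 61 for number 4.

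**Figure D4:**
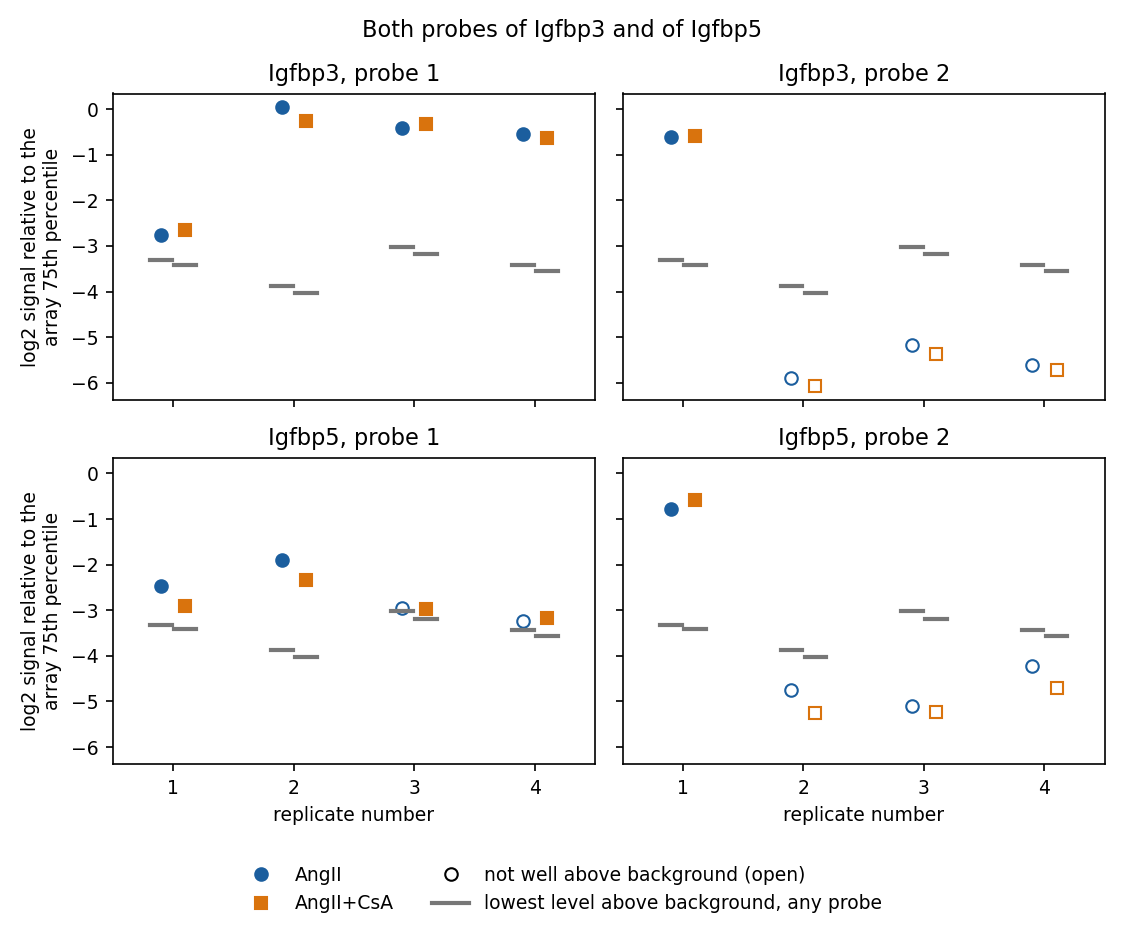
Levels of both probes of Igfbp3 (top) and Igfbp5 (bottom) by replicate number, on one log2 axis where 0 is the 75th percentile of the array; circles are AngII, squares AngII+CsA, open symbols not well above background, and grey dashes the lowest level above background of any probe on that array. Probe 2 of either gene stands above the dashes only in number 1, where probe 1 of Igfbp3 is at its lowest.

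Several markers of cell identity also differed between the numbers. Of the smooth muscle markers 8 of 10 tested passed the F test and of the fibroblast markers 3 of 5, beside 68.5% of all genes. The summed signal of the 11 smooth muscle markers, in multiples of the array's 75th percentile, was 304 and 232 on the arrays of number 1, 716 and 733 for number 2, 1378 and 1224 for number 3 and 1383 and 1110 for number 4, the AngII array first. The summed signal of the 8 fibroblast markers ran the other way, from 1196 and 1150 for number 1 to 785 and 690, 409 and 440, and 302 and 344. The sums rest on their brightest genes, Acta2 and Tagln on the one side and Dcn on the other, and the lists were not uniform. Cald1 was highest in number 1 (3.73 and 3.30), Myh11 was lowest in number 4, the fibroblast markers Pi16 and Clec3b ranged over 0.30 and 0.28 log2 and did not pass, and Cd34 was above background on 0 arrays. Igf1, Igfbp2, Igfbp4 and Igfbp6 were low where the smooth muscle sum was low, and Igf2 was above background where the fibroblast sum was high. Igf2 did not follow the order of that sum, being lower in number 1 (-2.04), where the sum was highest, than in number 2 (-1.51). The part of the marker differences in the IGF values was not tested.

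Between the drug groups the ranges of these sums overlapped. The smooth muscle sum ran from 304 to 1383 with AngII and from 232 to 1224 with AngII+CsA, and the fibroblast sum from 302 to 1196 and from 344 to 1150. Endothelial sums stayed between 0.778 and 1.26, macrophage sums between 6.74 and 12.0 and adipocyte sums between 0.240 and 0.683 over all arrays. Within pairs, the smooth muscle sum was lower with AngII+CsA in 3 of 4 and the endothelial sum in 4 of 4. The macrophage sum was lower in 3 of 4, and the fibroblast and adipocyte sums in 2 of 4 each. The endothelial sum rests on dim markers, of which 2 of 9 were above background on all 8 arrays. Among the smooth muscle markers Cnn1, named after its values were seen, was lower in 4 of 4 pairs (mean difference -1.71, adjusted p = 0.462 with the block, limma). The part of these differences in the IGF values was not tested.

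**Figure D5:**
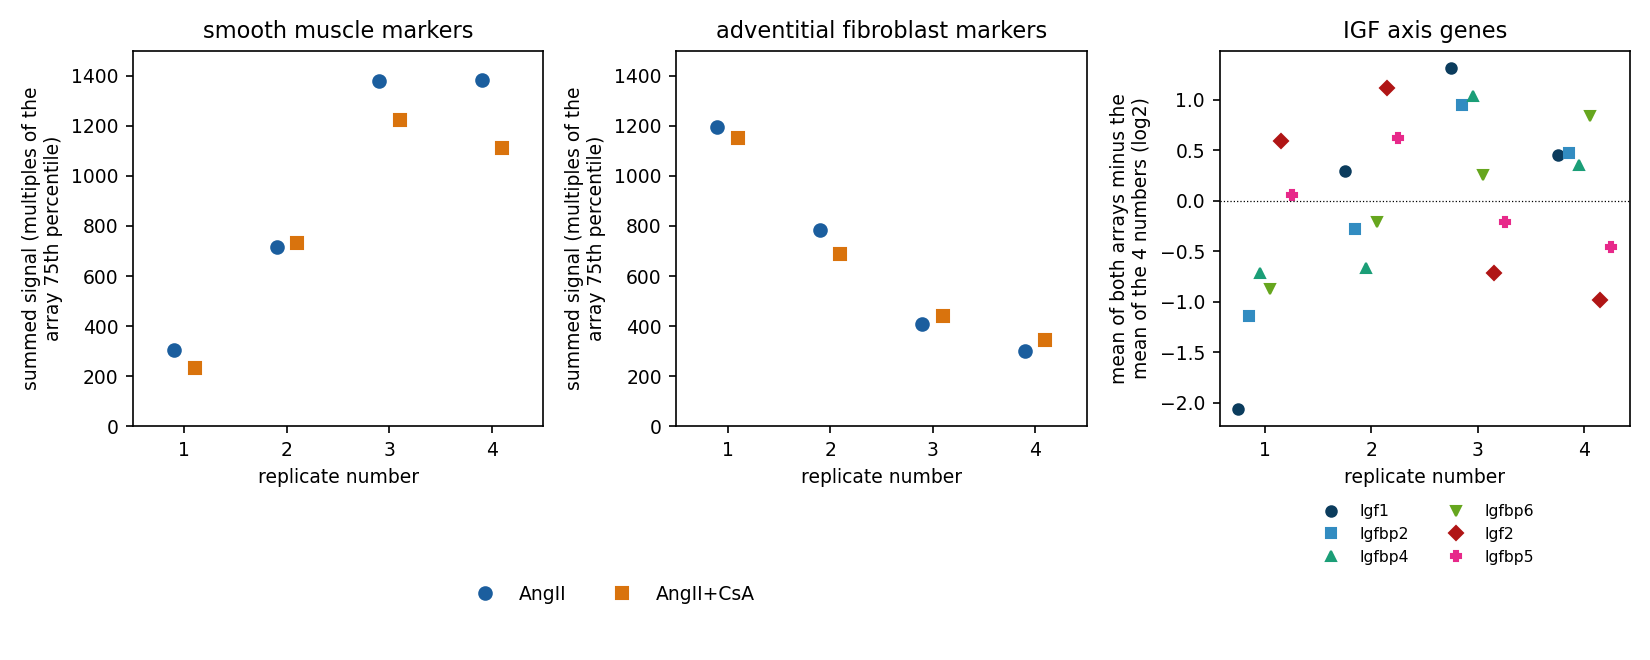
Left and middle: summed signal of the smooth muscle and fibroblast markers (multiples of the array's 75th percentile) by replicate number, circles for AngII and squares for AngII+CsA. Right: mean of both arrays of a number minus the mean of the 4 numbers (log2) for 6 IGF axis genes, where Igf1 lies lowest in number 1 and Igf2 and Igfbp5 lie highest in number 2.

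Among the members themselves, Igf1 correlated with Igfbp2 at r = 0.93 and with Igfbp3 probe 1 at r = 0.93 over the 8 arrays, and Igf2 with Igfbp5 probe 1 at r = 0.94. Igf2 and Igfbp4 correlated at r = -0.83. These values describe 4 pairs of arrays that share a slide, and they are not tests. The genes most like Igf1 over the 8 arrays were Limch1 (r = 0.996), Cntn2 (0.985), Comp (0.985), Tgfb3 (0.984) and Tcf7 (0.983), and 111 of 11583 named genes reached 0.95. Those most like Igfbp5 were Foxn1 (r = 0.948), Igf2 (0.942), Defb11 (0.941), Wasf1 (0.940) and Agr2 (0.939), and 0 of 11583 reached 0.95. Igf2 was above background on 4 of the 8 arrays and Igfbp5 probe 1 on 6, so their likeness rests partly on background values.

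Genes around the axis were read from 4 lists. Of insulin, its receptors and other IGF-binding proteins, 12 of 15 were tested and 0 passed for the drug with either fit. Insr, the insulin receptor, was lower with cyclosporin in 4 of 4 pairs, at -2.16, -2.07, -1.53 and -1.22 with AngII and at -2.46, -2.47, -2.28 and -1.89 with AngII+CsA. The difference of -0.53 did not pass with the block (adjusted p = 0.894, limma). Igfals, the partner of circulating IGF complexes, differed by 0.96 but was above background on 1 AngII and 3 AngII+CsA arrays. Between numbers 9 of the 12 passed, beside 68.5% of all genes, with Ccn4 ranging over 1.97 log2 and highest in number 1, Kazald1 over 1.81 and highest in number 4, and Esm1 over 0.94 and highest in number 2.

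Of the proteases that cut binding proteins and their inhibitors, 10 of 13 were tested and 0 passed for the drug. Stc1, a secreted inhibitor of PAPP-A, was at 2.98, 0.42, 0.28 and -0.31 with AngII and at 1.21, -1.25, -0.37 and -1.43 with AngII+CsA. It was lower in all 4 pairs, by a mean difference of -1.30 (block interval -1.79 to -0.82, adjusted p = 0.610, limma). Pappa, which encodes PAPP-A, was higher in all 4 pairs, by 1.45, 0.06, 0.48 and 0.29 (mean 0.57, adjusted p = 0.894 with the block, limma). Between numbers 8 of the 10 passed, beside 68.5% of all genes, with Stc1 ranging over 2.96 log2 and highest in number 1, Plat over 1.01 and Adam12 over 0.77, both highest in number 3.

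Of the genes that bind Igf2 mRNA or, like Igf2, are tied to imprinting, 5 of 10 were tested, and 0 passed for the drug. Igf2bp2 differed by 0.22 and Plagl1 by -0.16. Between numbers 4 of the 5 passed, beside 68.5% of all genes, with Igf2bp2 highest in number 1 (range 1.53), Plagl1 highest in number 2 (1.19) and Grb10, an adaptor that restrains the receptors, highest in number 3 (0.96). Of 31 receptor signalling genes, 29 were tested and 0 passed for the drug, the smallest p belonging to Sos1 (difference 0.22) and Pdpk1 (0.19). Between numbers 25 of the 29 passed, beside 68.5% of all genes. Pik3r1, a regulatory subunit of PI3 kinase, ranged over 1.63 log2 and was highest in number 1, and Mtor, the growth-regulating kinase, ranged over 1.88 log2 and was highest in number 4.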

How the data were processed

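RNA of 4 AngII and 4 AngII+CsA cultures was labelled with Cy3 and hybridised to 1-colour arrays, per the labels' protocols. Per the file headers, arrays of Agilent design 014868 were quantified with Feature Extraction 9.5.3.1 (protocol GE1-v5_95_Feb07). The deposited scanner files give intensity on a linear scale per spot, as processed signal, mean signal and local background. A deposited table holds the authors' own log2 values, whose method is not given in the sources used here and which served as an alternative.

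The level is log2 of the processed signal minus the array's 75th percentile over non-control spots. Outlier spots were left out and spots of a probe averaged. Probes above background on at least 4 of 8 arrays were kept (19529), and each gene took its probe with the highest mean (14879 genes). Of 41174 probes, 23082 were named by accession through RefSeq genes (GRCm38.p6), 6582 had a current symbol and 11510 kept the file's name. The number of arrays limits the precision. A bound ("at least") sets the brighter number's mean against, per array, the higher of the dim probe's value and the lowest level above background.

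Tests used limma 3.58.1 under R 4.3.3 (lmFit, eBayes, two-sided), Benjamini-Hochberg adjustment over all genes and a threshold of 0.05. Groups were compared without a block, and with the replicate number as a block as an alternative. The numbers pair the arrays: same-numbered arrays' deviations correlated at 0.70 to 0.86, other arrays' at -0.76 to 0.26. Replicate numbers were compared by the moderated F test with group as covariate, in which p-values measure only the spread between arrays of a number. The fits were tested on simulated data. Named genes were all members. From each other list they were those past the threshold or else the 2 of smallest p for the drug, and up to 3 for the numbers. A gene that this rule names is not reported here. For the members of largest SD and of smallest p on the groups alone, they were the 5 most correlated genes. The members and lists were chosen with earlier results of these data known. Other settings covered background correction (normexp, offset 50), scaling, filter, outlier spots, choice of probe, variance model, the authors' table and left-out arrays.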

Additional observations from a re-analysis of the deposited data

Results flagged for a closer look

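Within groups of 4 arrays, 4 values of the member probes stood far from the other 3. Igfbp3 probe 1 was low on the AngII+CsA array of number 1, at -2.66, with the other arrays of that group at -0.62 to -0.27. It was also low, at -2.76, on the AngII array of the same number, which did not meet the rule. Igfbp3 probe 2 was high on both arrays of number 1, at -0.61 with AngII and -0.59 with AngII+CsA, the other arrays being below background. Igfbp5 probe 2 was high on the AngII+CsA array of number 1, at -0.59, and at -0.77 on the AngII array of the same number, which did not meet the rule. All 4 values belong to the arrays of number 1, which share a slide. Of 34 such groups examined, chance flags about 1 in 20.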

How the results depend on the processing

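No member passed for the drug under any setting run, with adjusted p from 0.157 upward (limma). Over all genes the count for the drug went from 0 to 4 with the replicate block, 6 with a random block, 3 with the block and the offset correction and 2 with the block and the authors' table. It was 0 with the block and no filter, and also 0 with the block on each set of 3 pairs. The block changed no member's call. Differences turned to 0.050 for Igf1r, 0.13 for Igf2r and 0.090 for Igfbp7 with the offset correction, with or without the replicate block. They turned to 0.015 for Igf2r and 0.036 for Igfbp7 with quantile normalization, and to 0.016 and 0.048 with the authors' table, with or without the block. Scaling to the array median, which moved the median of all genes from -0.02 to 0.08, gave 0.043 for Igf1r, 0.085 for Igf2r, 0.046 for Igfbp3, 0.0017 for Igfbp6 and 0.084 for Igfbp7.

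Leaving out single arrays or, with the block, pairs moved the difference of Igf1 between -0.65 and 0.72, Igf2 between -0.73 and 0.064, Igf1r between -0.23 and 0.045, Igf2r between -0.15 and 0.098 (-0.099 at the lowest for single arrays), Igfbp2 between -0.53 and 0.23, Igfbp3 between -0.67 and 0.51, Igfbp4 between -0.45 and 0.31, Igfbp5 between -0.41 and 0.034, Igfbp6 between -0.37 and 0.21 and Igfbp7 between -0.12 and 0.12. Apart from the lowest values of Igf1r and Igf2r, these limits come from single arrays left out, which unbalances the culture numbers. With a pair left out under the block, Igf1 moved between -0.0030 and 0.12 and Igf2 between -0.48 and -0.26. With the block, the sign turned without pair 1 for Igf1 (-0.0030), Igf2r (0.033) and Igfbp7 (0.029), without pair 2 for Igf1r (0.021), Igf2r (0.057) and Igfbp3 (0.033), without pair 3 for Igf1r (0.0058) and Igfbp4 (0.049), and without pair 4 for Igf2r (0.012). Between numbers 6 to 9 members passed. Over all genes 15436 passed without the filter, which tests more genes, and 6576 (without number 4) to 9276 with a number left out. The cause of the other changes was not tested. Low signal limits Igf2, Igfbp5 and the second probes of Igfbp3 and Igfbp5.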
